A study of Mus musculus with 22 samples.

Results

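Mouse T cells that carry the natural killer (NK) cell receptor NK1.1 were compared by whether they also carry the CD8 coreceptor: TCRb+CD8a+NK1.1+ cells against TCRb+CD8a-NK1.1+ cells, each sorted by flow cytometry in 2 libraries. The comparison takes 4 of the 22 RNA-seq libraries of the study and 2 of its 11 sorted populations, and covers the 15727 of 37620 table entries that had enough counts. All cells came from pooled mammary tumours of female C57BL/6 mice with the PyMT transgene, aged 20 to 24 weeks. The transgene encodes an oncoprotein of mouse polyomavirus that gives rise to mammary carcinoma, and the labels name no promoter and no number of mice per pool. Nothing in the labels says that the libraries of a population came from separate pools, so the p-values measure only the spread between these libraries, which may be technical. The spread was estimated over 10 libraries, which add TCR-NK1.1+, TCRb+CD8a+PD1+ and TCRb+CD8a+PD1-NK1.1- cells from tumours of the same mouse model.

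NK1.1 is an activating lectin-like receptor encoded by Klrb1c and is usually read as a mark of NK cells. T cells with NK1.1 include invariant natural killer T cells, which see lipids on CD1d and depend on the factor PLZF (Zbtb16), and CD8+ T cells that have taken on NK cell receptors in tissue. CD8 is made of an alpha chain (Cd8a) and, on conventional cytotoxic T cells, a beta chain (Cd8b1), and it binds MHC class I. T cells that recirculate leave tissue through the sphingosine 1-phosphate receptor S1pr1 and are drawn into lymph nodes by way of Ccr7, and many resting T cells rely on the interleukin 7 receptor (Il7r) to survive.

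The 4 libraries held 11919781 and 12196748 counts for the CD8a+ cells and 13817168 and 13736594 for the CD8a- cells. Values below are CPM, read counts per 1e+06 of a library after scaling for composition. Gene values were scaled over the 10 libraries of the fit and summed markers over all 22 libraries, so the 2 differ slightly in scale. Each set of 4 is given as CD8a+ replicates 1 and 2, then CD8a- replicates 1 and 2. Differences are log2 fold changes ± SE of CD8a+ minus CD8a- cells, and the adjusted p values come from the edgeR quasi-likelihood fit, corrected over all tested genes by the Benjamini-Hochberg method, with genes called below 0.05. Both CD8a- libraries stood apart. Replicate 1 had 251 genes of at least 20 CPM at more than 4 times the highest of the other 3 libraries, 205 of which followed a list of mammary epithelial markers across the study's libraries. Replicate 2 had 91 genes at less than 1/4 of the lowest of the others, where the other 3 libraries had 7 to 10. The log2 CPM of the replicates correlated at r = 0.892 across genes in CD8a- cells and 0.974 in CD8a+ cells, as a description since genes are not independent replicates.

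The sorting marks were found in the RNA. Cd8a stood at 2644 and 2636 CPM in CD8a+ cells and at 88.9 and 43.6 in CD8a- cells, a log2 fold change of 5.32 ± 0.47 (adjusted p = 0.00264). It was the only gene called higher in CD8a+ cells. Cd8b1 stood at 426 and 482 CPM against 10.8 and 0, so the CD8a+ libraries held RNA of both coreceptor chains, but with the CD8a- libraries this far apart it was not called (6.38 ± 1.28, adjusted p = 0.0808). The log2 fold change of Cd8b1 was 15.57 without CD8a- replicate 1, where the library left had no count, and 5.40 without replicate 2. Neither fit holds a spread within CD8a- cells, so neither settles the call. Klrb1c, the gene of NK1.1, was at 1105, 1104, 974 and 888 CPM, a log2 difference of 0.25 ± 0.43 that did not pass the test. Cd3e, a chain of the T cell receptor complex, was at 1574, 1874, 925 and 1274 CPM, and Trac, the constant part of the receptor alpha chain, at 917, 764, 534 and 492. Both were present in all 4 libraries and neither was called, with adjusted p of 0.613 and 0.513. Cd4, the coreceptor of helper T cells, had 0 CPM in both CD8a+ libraries and 0.134 and 0.139 CPM in the CD8a- libraries. The CD8a- cells thus held almost no Cd4 RNA, and Cd8a RNA at a small part of the level in CD8a+ cells. Zbtb16, which defines invariant natural killer T cells, was at 1.00, 0.752, 2.14 and 1.25 CPM, low in every library of both populations.

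In all, 53 of 15727 genes were called, or 0.337% of those tested, with 1 higher (0.00636%) and 52 lower (0.331%) in CD8a+ cells. At an unadjusted p under 0.05 there were 1469, with 270 higher and 1199 lower. All 53 had both libraries of one population above both of the other, as did 15.9% of tested genes upward and 15.4% downward. Of all tested genes 7296 had a log2 fold change above 0 and 8331 below 0. Of the 52 lower genes, 31 followed the epithelial marker list, with a correlation above 0.8 over the 22 libraries, and 21 did not. These 21 genes and Cd8a are described first. As RNA from sorted bulk cells, the values do not separate fewer cells of a type from less RNA per cell. As the libraries of the 2 populations did not overlap in any of the 53 genes, none could change direction in a fit without either CD8a- library. Such a fit has 1 CD8a- library, so the spread comes from the other populations alone. Calls kept or gained in these fits therefore do not show that the CD8a- libraries agree. Calls without CD8a- replicate 1 were 0.271% of tested genes upward and 0.541% downward, and without CD8a- replicate 2 they were 0.0406% and 3.83%. Without CD8a+ replicate 1 only 5 genes were called (Anxa1, Cd8a, Il7r, Nupr1 and Rbm47), or 0.00578% upward and 0.0231% downward. Without CD8a+ replicate 2 only Anxa1 and Cd8a were called, 0.00578% in each direction. The calls of the other genes below were therefore lost without at least 1 of the CD8a+ libraries. All 22 genes apart from the epithelial list kept their direction in both fits, which their lack of overlap fixed in advance. The median absolute shift in their log2 fold change was 0.07 in each fit, but some moved far more. Without CD8a+ replicates 1 and 2 in turn, Il7r went from -4.70 to -5.72 and -4.11, and S1pr1 from -3.34 to -4.16 and -2.82. Limma-voom, and edgeR on the 4 libraries alone, called 3 genes each, Anxa1 and Cd8a among them.

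**Figure D1:**
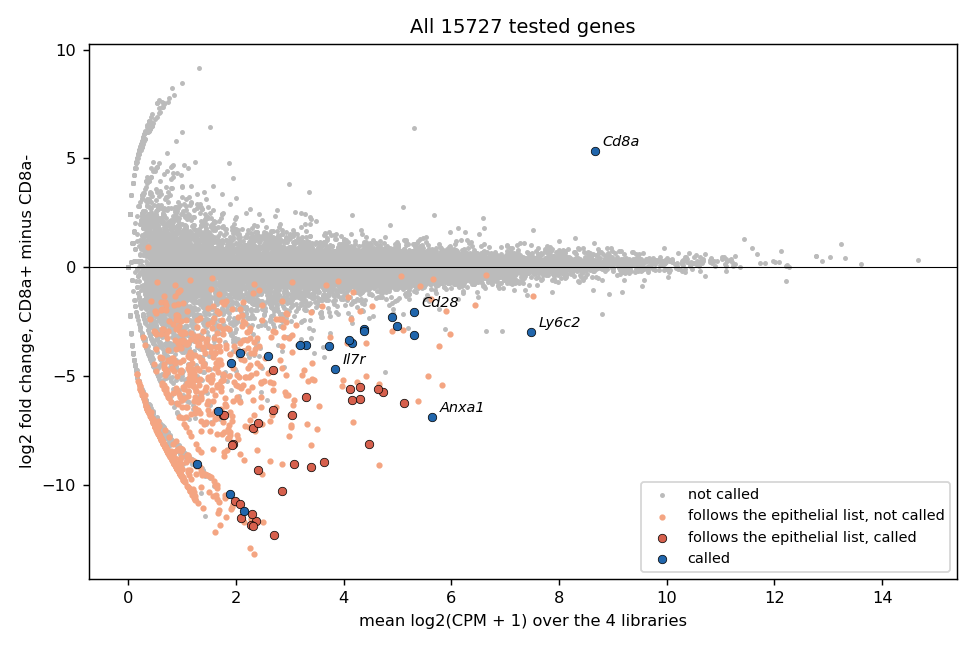
Log2 fold change of CD8a+ minus CD8a- cells (vertical axis) against the mean log2(CPM + 1) over the 4 libraries (horizontal axis) for the 15727 tested genes. Blue points are called genes that do not follow the epithelial list, red points are called genes that do, and pale orange points are uncalled genes that do; Cd8a is the only called gene above 0.

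**Figure D2:**
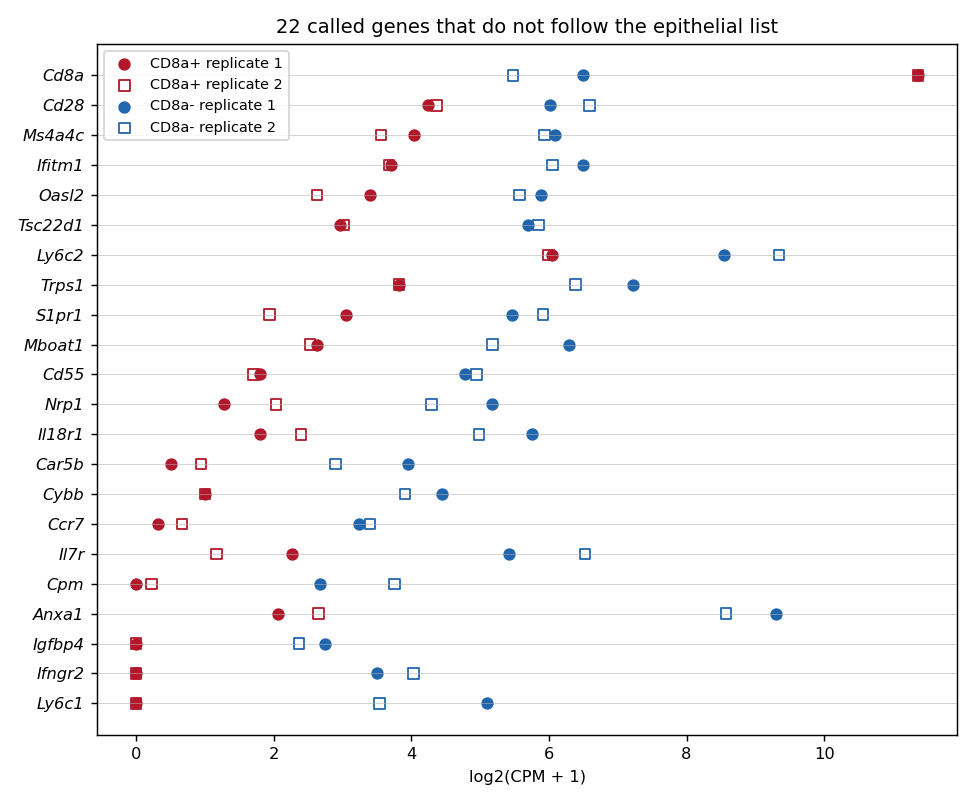
Log2(CPM + 1) in each of the 4 libraries for the 22 called genes that do not follow the epithelial list, with CD8a+ libraries in red, CD8a- libraries in blue, replicate 1 as filled circles and replicate 2 as open squares. In each gene the red and blue marks do not overlap, and only Cd8a is higher in red.

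Promoter sequences are shown for Cd8a and for Il7r and Anxa1, the genes lower in CD8a+ cells and apart from the epithelial list that were called in the most fits leaving out a library, so that a reader can see the start regions of the genes on which the contrast turns. They span 250 bases before to 50 after the annotated start and are from RefSeq on GRCm38.p6, which held 18 of the 22 genes. Capitals mark letters found, on either strand, of the motifs searched. One was TGTGGT, known from RUNX factors. Another was CTTTGA, known from TCF and LEF factors. The last was TATAAA, the TATA box. Cd8a lies at chr6:71373177-71373476 on the plus strand, Il7r at chr15:9529827-9530126 on the minus strand and Anxa1 at chr19:20390622-20390921 on the minus strand.
Cd8a: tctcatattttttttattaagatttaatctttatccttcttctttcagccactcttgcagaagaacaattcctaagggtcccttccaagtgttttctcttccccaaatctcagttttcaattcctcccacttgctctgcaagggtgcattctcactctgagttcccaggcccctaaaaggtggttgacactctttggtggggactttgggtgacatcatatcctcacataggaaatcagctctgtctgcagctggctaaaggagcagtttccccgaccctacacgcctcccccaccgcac
Il7r: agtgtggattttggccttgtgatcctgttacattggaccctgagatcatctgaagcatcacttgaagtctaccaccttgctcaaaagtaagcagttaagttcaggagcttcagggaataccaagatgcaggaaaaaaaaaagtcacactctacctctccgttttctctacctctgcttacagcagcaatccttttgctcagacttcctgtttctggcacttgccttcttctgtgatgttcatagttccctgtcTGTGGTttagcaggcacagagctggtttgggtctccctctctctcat
Anxa1: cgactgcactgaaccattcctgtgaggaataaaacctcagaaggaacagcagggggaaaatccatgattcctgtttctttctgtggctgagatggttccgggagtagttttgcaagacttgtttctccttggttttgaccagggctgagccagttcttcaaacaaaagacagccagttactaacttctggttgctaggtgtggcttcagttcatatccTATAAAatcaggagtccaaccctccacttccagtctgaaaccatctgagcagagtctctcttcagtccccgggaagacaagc
Il7r held 1 match to TGTGGT, a sequence present in 16.9% of the 27025 promoters of this length, and Anxa1 held 1 match to TATAAA, present in 14.2%. CTTTGA, present in 16.2%, was in none of the 3. A match describes the letters of the window and is not evidence of binding.

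A group of 4 genes of tissue exit and circulation was lower in CD8a+ cells. S1pr1, which guides lymphocytes out of tissue, was at 7.25 and 2.84 CPM in CD8a+ cells and 43.2 and 59.2 in CD8a- cells (-3.34 ± 0.49, adjusted p = 0.026). Ccr7, the receptor for lymph node chemokines, was at 0.25 and 0.585 against 8.48 and 9.56 CPM (-4.40 ± 0.72, adjusted p = 0.0397). It was low in both populations, both CD8a+ libraries lay under 1 CPM, and scaling by library totals alone ended the call (adjusted p = 0.0542). Ly6c2, a surface protein of circulating memory T cells and monocytes, was at 65.3 and 62.7 against 373 and 648 CPM (-3.00 ± 0.32, adjusted p = 0.00732). Its near copy Ly6c1 had no count in either CD8a+ library and 33.2 and 10.6 CPM in CD8a- cells, at least 174.8-fold lower when 3 counts over both CD8a+ libraries are taken as the floor (adjusted p = 0.0233). Reads of Ly6c1 and Ly6c2 can be assigned to either gene, so their split is uncertain. All of these stood lower in both CD8a+ libraries than in either CD8a- library.

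The egress and circulation list held 18 genes, of which 4 were called lower, 0 higher and 14 not called. Its median log2 fold change was -1.70, beside -0.05 over all tested genes, 17 of 18 members lay below 0, and 11 of 18 had CD8a+ libraries under both CD8a- libraries, where 15.4% of tested genes did. Among the uncalled members, Cx3cr1, a receptor of circulating effector cells, was at 9.42 and 6.18 against 23.7 and 43.5 (adjusted p = 0.11). Klf2, a transcription factor that drives S1pr1, was at 2.00 and 3.68 against 6.67 and 24.5 CPM (-2.45 ± 0.69, adjusted p = 0.212). Without CD8a- replicate 1, 6 members were called lower, among them Klf2 (adjusted p = 0.0401) and Cx3cr1 (0.0434). Without CD8a- replicate 2, 5 were called lower, the adjusted p was 0.497 for Klf2 and 0.148 for Cx3cr1, and the median of the list was -0.93.

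Il7r, the receptor chain for interleukin 7, was at 3.83 and 1.25 CPM in CD8a+ cells and 41.7 and 91.2 in CD8a- cells (-4.70 ± 0.55, adjusted p = 0.00985). The higher CD8a- value was in replicate 2, the library with fewer epithelial transcripts. Igfbp4, a growth factor binding protein seen in naive T cells, had no count in either CD8a+ library and 5.74 and 4.16 CPM in CD8a- cells, at least 39.53-fold lower (adjusted p = 0.0233). The naive and memory list held 18 genes, with 3 lower (Il7r, Ccr7 and Igfbp4), 0 higher and 15 not called, a median of -1.43 and 14 members below 0. Tcf7, the transcription factor TCF1 of naive and memory cells, was at 46.1 and 37.2 against 114 and 114 CPM (-1.45 ± 0.33, adjusted p = 0.119), and Lef1, its relative, at 15.8 and 12.6 against 37.8 and 37.7 (adjusted p = 0.343). Both transcription factors were lower in both CD8a+ libraries without passing the test. Bach2, a repressor that limits effector differentiation, was at 1.42 and 2.01 against 7.61 and 33.8 CPM (-3.59 ± 0.83, adjusted p = 0.121). Without CD8a- replicate 1, 6 members were called lower, among them Bach2 (adjusted p = 0.0181) and Dapl1 (0.0381). Without CD8a- replicate 2, 4 were called lower, and Bach2 had a log2 fold change of -2.14 (adjusted p = 0.181) in place of -4.29 without replicate 1. The egress and naive lists share members, Klf2 and Ccr7 among them, so their counts are not independent.

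**Figure D3:**
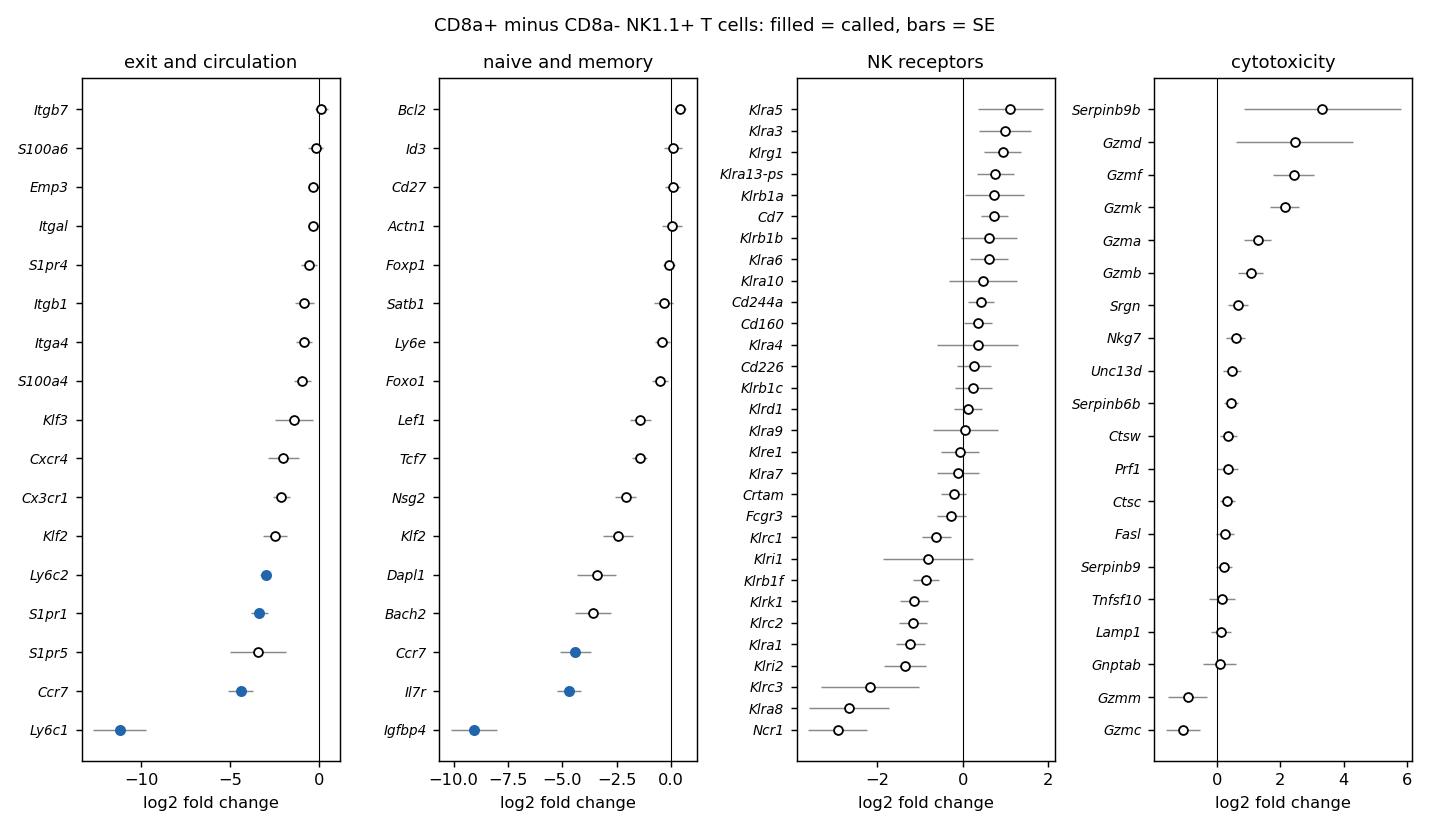
Log2 fold change of CD8a+ minus CD8a- cells with SE bars for the tested members of 4 lists, exit and circulation, naive and memory, NK receptors and cytotoxicity, leaving out 2 granzymes with no fitted error and members not reported here. Filled points passed the test, 4 in the first panel and 3 in the second, with Ccr7 in both, and none in the other panels; horizontal scales differ between panels.

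Receptors for cytokines split. Il18r1, which binds interleukin 18 and primes interferon gamma production, was at 2.50 and 4.26 CPM in CD8a+ cells and 52.9 and 30.7 in CD8a- cells (-3.63 ± 0.43, adjusted p = 0.00985). Il18rap, its partner chain, was at 17.2 and 14.4 against 65.6 and 73.9 CPM and did not pass (-2.14 ± 0.45, adjusted p = 0.0948). Both chains had CD8a+ libraries below both CD8a- libraries. Ifngr2, the second chain of the interferon gamma receptor, had no count in either CD8a+ library and 10.3 and 15.3 CPM in CD8a- cells, at least 102.5-fold lower (adjusted p = 0.00922). Its partner Ifngr1 was at 899, 951, 656 and 956 CPM, with overlapping libraries. Among the 24 cytokine receptor genes tested, 3 were called lower, 0 higher and 21 missed the threshold, with a median of 0.03. Il2rb, the shared chain of the interleukin 2 and 15 receptors, was at 2263 and 1544 against 1716 and 1014 CPM and overlapped between populations (adjusted p = 0.73), and Il12rb2, of the interleukin 12 receptor, was at 186 and 248 against 127 and 155 (adjusted p = 0.831). The 3 lower members were thus Il7r, Il18r1 and Ifngr2.

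Cd28, the costimulatory receptor of naive T cells, was at 17.9 and 19.6 CPM in CD8a+ cells and 63.5 and 95.4 in CD8a- cells (-2.08 ± 0.30, adjusted p = 0.0252). It was the 1 called gene of 20 costimulators, whose median was 0.01. Icos, a CD28 relative, was at 9.17 and 9.86 against 23.3 and 37.1 CPM (adjusted p = 0.148), and Cd40lg, by which helper T cells act on B cells, at 0.25 and 0.752 against 6.54 and 9.84 (adjusted p = 0.148). Neither passed, though the libraries of the populations did not overlap in either gene. Gata3, a transcription factor of helper and innate-like T cells, was at 61.8 and 56.6 against 134 and 131 CPM (-1.16 ± 0.25, adjusted p = 0.101). Of the 17 tested genes on the helper list 0 were called in either direction, and the median of -0.83 came to -0.24 with genes at 0 in a population set to their bound. Nrp1, found on regulatory and innate-like T cells, was at 1.42 and 3.09 against 34.9 and 18.6 CPM (-3.57 ± 0.49, adjusted p = 0.0233), the 1 called gene of 13 on the regulatory T cell list.

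Anxa1 encodes annexin A1, a calcium-dependent membrane-binding protein with anti-inflammatory action. It stood at 3.17 and 5.26 CPM in CD8a+ cells and at 631 and 379 in CD8a- cells (-6.90 ± 0.58, adjusted p = 0.00264). Anxa1 and Cd8a were the genes called in all 4 fits that left out a library. Trps1, a GATA-type transcriptional repressor, was at 13.2 and 13.1 against 149 and 82.5 CPM (-3.14 ± 0.37, adjusted p = 0.00985). Tsc22d1, a leucine zipper protein of the TSC22 family, was at 6.83 and 7.10 against 50.9 and 56.5 CPM (-2.95 ± 0.29, adjusted p = 0.00532), with the replicates of each population close together. Cd55, which shields cells from complement, was at 2.50 and 2.26 against 26.5 and 29.9 CPM (-3.56 ± 0.47, adjusted p = 0.0232). Mboat1, a phospholipid acyltransferase, was at 5.17 and 4.76 against 77.5 and 35.3 CPM (-3.50 ± 0.49, adjusted p = 0.0233). Cpm and Car5b fall outside the rule for named genes and were picked after their values were seen. Cpm, a carboxypeptidase, was at 0 and 0.167 against 5.41 and 12.5 CPM (-6.60 ± 1.02, adjusted p = 0.0318). It had 0 and 2 counts in the CD8a+ libraries, close to the floor, so the size of its difference is uncertain. Car5b, a mitochondrial carbonic anhydrase, was at 0.417 and 0.919 against 14.55 and 6.45 CPM (-3.96 ± 0.63, adjusted p = 0.0351). All of these genes had both CD8a+ libraries below both CD8a- libraries.

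A few interferon-linked genes were among those called. Oasl2, an interferon-induced antiviral gene, was at 9.58 and 5.18 CPM in CD8a+ cells and 58.3 and 46.5 in CD8a- cells (-2.83 ± 0.40, adjusted p = 0.0233). Ifitm1, an interferon-induced membrane protein, was at 12.1 and 11.8 against 88.8 and 65.3 CPM (-2.69 ± 0.41, adjusted p = 0.0318), and Ms4a4c, of the MS4A membrane protein family, at 15.4 and 10.8 against 66.8 and 60.2 (-2.28 ± 0.35, adjusted p = 0.0332). Both fall outside the rule for named genes and were picked after their values were seen. The interferon response list as a whole had 1 lower, 0 higher and 19 uncalled members of 20, with a median of -0.38. Ifit3 was at 107 and 67.1 against 170 and 146 CPM (adjusted p = 0.354), and Irf7 at 143 and 101 against 168 and 133, with overlapping libraries. No member of the list other than Oasl2 was called.

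Genes of killing did not pass the test in either direction. Gzmb, the main cytotoxic granzyme, was at 16256 and 12516 CPM in CD8a+ cells and 8807 and 4920 in CD8a- cells (1.07 ± 0.39, adjusted p = 0.402). Gzma, a related granzyme, was at 4969 and 3755 against 1944 and 1605 CPM (1.30 ± 0.43, adjusted p = 0.326). Both granzymes were abundant in all 4 libraries and higher in both CD8a+ libraries. Gzmk was at 27.9 and 16.3 against 7.08 and 2.91 CPM (2.14 ± 0.46, adjusted p = 0.101) and among the fits that left out a library was called only without CD8a- replicate 1 (adjusted p = 0.0271). In contrast Gzmc was at 232 and 316 against 570 and 572 CPM (-1.06 ± 0.53, adjusted p = 0.595). Its reads can be shared with its near copies Gzmd to Gzmg. Prf1, the pore-forming protein perforin, overlapped between populations at 102, 85.3, 90.4 and 55.5 CPM. Of the 22 tested cytotoxicity genes 0 were called and 18 lay above 0. In 12 the CD8a+ libraries stood above both CD8a- libraries, where 15.9% of tested genes did. The median was 0.36 and came to 0.30 with genes at 0 in a population set to their bound. On simulated counts the test found 2% of the genes set apart by a log2 of 1 and 36% at a log2 of 2. These shares pool genes of many levels and do not give the share found among abundant genes such as Gzmb. Why no cytotoxicity gene passed was not tested.

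NK cell receptor genes gave no call in either direction. Ncr1, which encodes the NK cell receptor NKp46, was at 17.2 and 61.4 CPM in CD8a+ cells and 309 and 289 in CD8a- cells (-2.93 ± 0.69, adjusted p = 0.14). Its CD8a+ libraries lay far apart from each other and below both CD8a- libraries. Klrk1, the activating receptor NKG2D, was at 391 and 388 against 790 and 929 CPM (-1.14 ± 0.33, adjusted p = 0.23), and Klrc2, of the NKG2 family, at 145 and 172 against 272 and 440 (adjusted p = 0.23). Klra1, of the Ly49 family, was at 312 and 326 against 696 and 793 CPM (adjusted p = 0.192). Klra and Klrc genes are close copies that can share reads. On the other side Cd7, an immunoglobulin-type receptor of NK and T cells, was at 6226 and 5275 against 3594 and 3275 CPM (0.74 ± 0.31, adjusted p = 0.493). Of 30 tested NK receptor genes 0 were called, and 16 lay above 0 and 14 below. The CD8a+ libraries stood above both CD8a- libraries in 11 and below both in 9, where 15.9% and 15.4% of tested genes did. Their median was 0.10, and -0.07 without CD8a- replicate 1. Fcer1g and Tyrobp, adaptor chains through which NK receptors signal, were at 2197, 1931, 1386 and 1364 and at 737, 594, 461 and 381 CPM. Both adaptors were present in all 4 libraries and uncalled (adjusted p = 0.803 and 0.619).

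Genes of T cell receptor signalling lay mostly above 0 in CD8a+ cells without a call. Of 23 tested members 0 were called and 21 lay above 0, with a median of 0.32. Of all 15727 tested genes 7296 lay above 0, and the median was -0.05. In 12 members the CD8a+ libraries stood above both CD8a- libraries, where 15.9% of tested genes did. Cd6, a T cell surface receptor that restrains signalling, was at 181 and 179 against 56.9 and 46.2 CPM (1.80 ± 0.31, adjusted p = 0.0514), just outside the threshold. Cd3g was at 4310 and 4045 against 2333 and 2185 CPM (0.89 ± 0.21, adjusted p = 0.135). Over the same libraries the summed T cell identity markers were 12780 and 11680 CPM in CD8a+ cells and 7716 and 7861 in CD8a- cells. None of the 12 variable or joining segments of the T cell receptor with at least 50 CPM in a library was called. Of these segments 5 had CD8a+ libraries above both CD8a- libraries and 0 had them below. Among tested genes the shares were 15.9% and 15.4%.

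Genes of tissue residence gave no call. Itgae, the integrin chain CD103 that binds E-cadherin, was at 1416 and 1277 CPM in CD8a+ cells and 938 and 546 in CD8a- cells (0.86 ± 0.33, adjusted p = 0.448). Cxcr6, a chemokine receptor of tissue lymphocytes, was at 1839 and 1763 against 1137 and 1321 CPM (adjusted p = 0.585). Itga1, the collagen-binding integrin CD49a, was at 237, 316, 165 and 271 CPM, with overlapping libraries. Of 20 tested residency genes 0 were called and the median was 0.28, or -0.06 without CD8a- replicate 1. Zfp683, the residency factor Hobit, was at 29.8 and 32.1 against 13.3 and 16.8 CPM (1.04 ± 0.42, adjusted p = 0.465), and Eomes, a T-box factor of NK and memory T cells, at 8.08 and 8.53 against 13.6 and 19.5 (-0.997 ± 0.326, adjusted p = 0.321). Of 28 lineage factors 0 were called. Tox, a nuclear factor known from exhausted T cells, was at 364 and 304 against 194 and 193 CPM (0.79 ± 0.24, adjusted p = 0.288), and Lag3, an inhibitory receptor, at 61.8 and 77.97 against 21.02 and 33.96 (1.34 ± 0.56, adjusted p = 0.49). Of 19 inhibitory receptor genes 0 were called, with 16 above 0 and a median of 0.42.

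The other 31 lower genes followed the epithelial markers. Krt19, a keratin of luminal epithelium, was at 1.58 and 1.25 CPM in CD8a+ cells and 735 and 54.2 in CD8a- cells (-8.11 ± 1.21), and Krt8, another luminal keratin, at 2.25 and 2.42 against 264 and 49.5 (-6.06 ± 0.74). Prlr, the prolactin receptor, was at 0 and 0.501 against 278 and 27.9 CPM (-9.20 ± 1.34). In each of these the first CD8a- library was several times the second, and the second was above both CD8a+ libraries. The tight junction gene Cldn4 had the other order, with no count in the CD8a+ libraries and 18.2 and 30.1 CPM in the CD8a- libraries. Over all 764 tested genes that followed the list the median log2 fold change was -5.99. As these genes were chosen by correlation over libraries that include those compared, the choice fixes part of this median. The 17 epithelial markers other than Cdh1 summed to 99.7 and 61.3 CPM in CD8a+ cells and 5333 and 348 in CD8a- cells. Cdh1, or E-cadherin, was kept out of this sum because it was at 511, 648, 640 and 736 CPM in the 4 libraries, with no call.

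Summed markers of myeloid, mast and erythroid cells were also lower in both CD8a+ libraries. The 20 myeloid markers summed to 295 and 359 CPM in CD8a+ cells and 1397 and 605 in CD8a- cells, and Cybb, the phagocyte oxidase chain, was the 1 of them called, at 1.00 and 1.00 against 20.7 and 14.0 CPM (-4.10 ± 0.47, adjusted p = 0.00922). Lyz2, the lysozyme of macrophages, was at 0.25 and 1.42 against 86.5 and 2.50 CPM. Mast cell and basophil markers summed to 8.10 and 2.70 against 66.8 and 21.5 CPM, and erythroid and platelet markers to 3.13 and 2.78 against 29.5 and 7.62. Stromal markers overlapped at 5.40, 30.4, 161 and 19.7 CPM, and the B cell sum was 1062 and 921 in CD8a+ cells against 710 and 583. Of the 10 B cell markers tested 0 were called, 6 lay below 0 and the median was -1.88, so the higher sum came from a few members, mainly Ighm, the constant region of IgM, at 953.5 and 825 against 621 and 535 CPM. NK cell markers summed to 11990 and 9774 CPM in CD8a+ cells and 6102 and 5589 in CD8a- cells. Of the 15 NK cell markers tested 0 were called, 6 lay above 0 and 8 below, and the median was -0.77. The higher sum thus does not describe most of its members. In the first CD8a- library 0 of the 17 epithelial and 0 of the 20 myeloid markers were at 0, while in the second 5 of each were, and in the CD8a+ libraries 5 and 7 epithelial and 3 and 3 myeloid markers were. A further fit took the log2 of the summed epithelial markers as a covariate, with Cdh1 included. That sum was 633 and 736 CPM in CD8a+ cells and 5979 and 1111 in CD8a- cells. It set the second CD8a- library less apart from CD8a+ cells than the sum without Cdh1 did. A covariate without Cdh1 was not tested. With Cdh1 in the covariate, Cd8a and 12 of the 21 lower genes apart from the epithelial list stayed called. Among them were Il7r, Anxa1, Ly6c2, S1pr1, Cd28, Ccr7 and Ifngr2. The calls of 9 were lost, with adjusted p of 0.0508 for Il18r1, 0.0519 for Igfbp4, 0.0571 for Trps1, 0.103 for Nrp1, 0.108 for Oasl2, 0.127 for Ms4a4c, 0.132 for Mboat1, 0.174 for Ifitm1 and 0.194 for Car5b. Their log2 fold changes stayed below 0. The part of myeloid and other cells in the lower genes was not tested. Of the 21 called lower genes that did not follow the epithelial list, 12 were higher in the first CD8a- library and 9 in the second, among the latter Il7r, S1pr1, Ly6c2, Ccr7, Cd28 and Ifngr2. With the epithelial genes left out of the adjustment 22 genes (0.147%) were lower and 1 (0.00668%) higher of 14963 tested, and 22 of these 23 were among the 53.

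**Figure D4:**
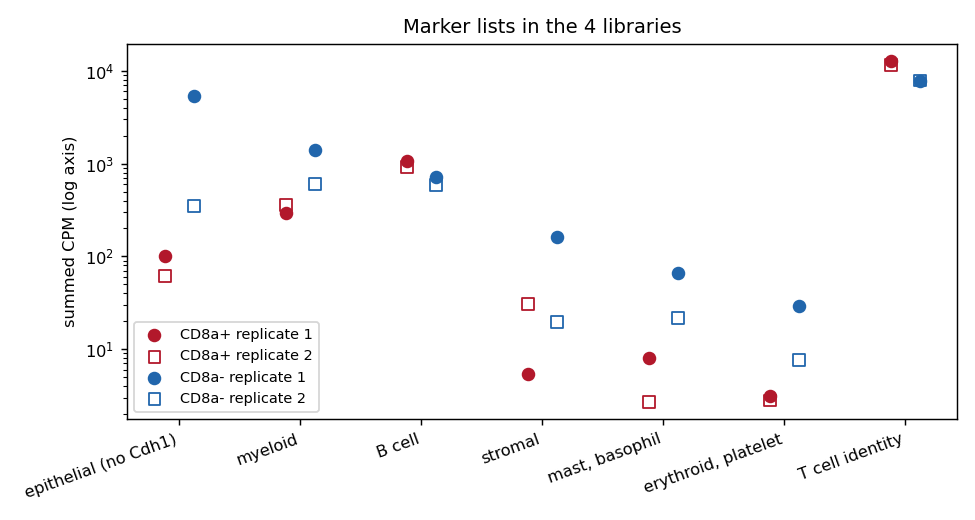
Summed CPM (log axis) of marker lists in the 4 libraries, CD8a+ in red and CD8a- in blue, with replicate 1 as filled circles and replicate 2 as open squares. The epithelial sum is 5333 in the first CD8a- library, 348 in the second and at most 99.7 in the CD8a+ libraries, while the T cell identity sum is 7716 or more in all 4.

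Set among the other populations of the fit, CD8a+NK1.1+ cells had the lowest mean in 19 of the 21 lower genes that did not follow the epithelial list. The 19 include Igfbp4, in which they tied at 0 CPM with TCRb+CD8a+PD1+ cells. As the genes were chosen for being lower in CD8a+NK1.1+ than in CD8a- cells, the choice fixes part of the 19. In Tsc22d1 the lowest mean was that of TCRb+CD8a+PD1-NK1.1- cells and in Ifitm1 that of TCRb+CD8a+PD1+ cells. Il7r was at 24.9 and 27.5 CPM in TCR-NK1.1+ cells, 143 and 148 in TCRb+CD8a+PD1+ cells and 577 and 463 in TCRb+CD8a+PD1-NK1.1- cells, so CD8a- NK1.1+ cells, at 41.7 and 91.2, came between the first and second of these. S1pr1 was at 7.65 and 11.7, 46.5 and 28.9, and 397 and 278 CPM in the same order of populations, and the CD8a+NK1.1+ value of replicate 1 lay within 1 CPM of the lower TCR-NK1.1+ library. Cd28 was at 44.0 and 59.3, 837 and 655, and 518 and 429 CPM. In these 3 genes the highest mean was in a CD8a+ population sorted by PD1. Anxa1 differed, at 1055 and 602 CPM in TCR-NK1.1+ cells, 22.6 and 18.2 in PD1+ cells and 31.5 and 69.1 in PD1-NK1.1- cells. The TCR-NK1.1+ and CD8a- NK1.1+ cells were thus the high ones. Across the 21 genes the highest mean was in PD1-NK1.1- cells for 9, in TCR-NK1.1+ cells for 6, in PD1+ cells for 4 and in CD8a- NK1.1+ cells for 2. The TCR-NK1.1+ libraries held 7990 and 4541 CPM of the epithelial markers other than Cdh1 and 2380 and 2168 of the myeloid markers. In PD1+ and PD1-NK1.1- libraries the epithelial sum was at most 51.1 and the myeloid sum at most 790. The part of such RNA in these values was not tested.

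**Figure D5:**
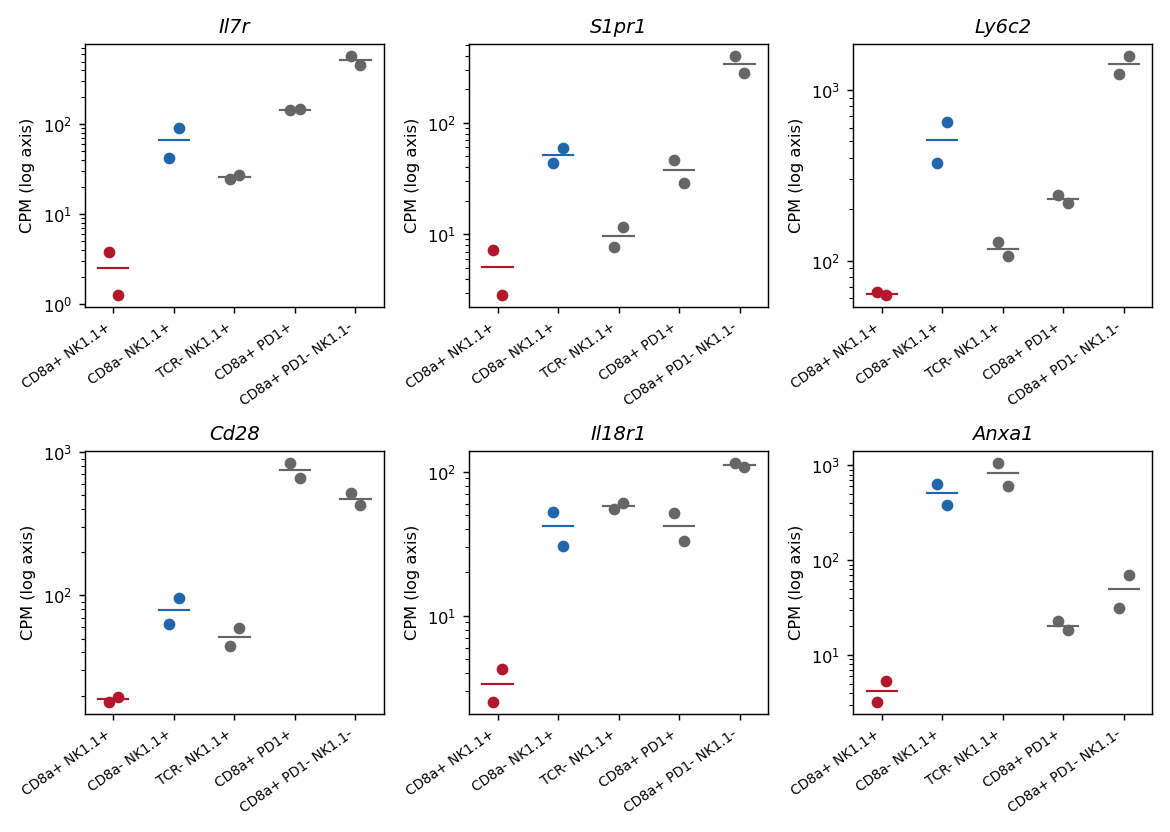
CPM (log axis) of 6 called genes in the 2 libraries of each of the 5 populations, with a bar at the mean; CD8a+NK1.1+ cells are in red, CD8a-NK1.1+ cells in blue and the other populations in grey. CD8a+NK1.1+ cells have the lowest mean in each panel, and for Anxa1 the high populations are TCR-NK1.1+ and CD8a-NK1.1+ cells.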

How the data were processed

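RNA of sorted lymphocytes was amplified as cDNA with a SMARTer kit, per the labels' protocols. The authors deposited whole-number read counts per gene for 22 libraries, and per the submitters' processing notes BWA 0.7.5a, Picard, HTSeq and the builds mm9 and NCBIM37 were used; the sources used here do not give what each build was for, how reads were counted or whether strand was used. Of 37620 entries, 32897 (99.02% of counts) took a symbol from an annotation of GRCm38, which served for naming alone. The 2 populations were taken from the sample titles and compared within a fit of the 10 libraries of 5 populations, with edgeR 4.0.16 in R 4.3.3 (TMM scaling, filterByExpr, quasi-likelihood test, adjusted p below 0.05). CPM are TMM-scaled, over the 10 libraries for genes and over all 22 for summed markers. SEs are the log2 fold change divided by the root of F. A count of 3 over both libraries, 0.125 CPM in CD8a+ cells, is the floor for folds of genes at 0. Floors cover counting error only, since molecules were not marked by identifiers. Replicates differed beyond sampling noise and were kept as separate libraries. Python 3.11.15 (pandas 2.3.3, matplotlib 3.10.9) made the tables and figures.

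The comparison and the gene lists were chosen with earlier results of these data known, and the lists were written from general knowledge. Named genes are a set of key genes, the 12 called genes of largest change each way (20 CPM or more in 1 population, libraries not overlapping), at most 3 called members of each list per direction, and receptor segments of at least 50 CPM. Uncalled list members beyond the key genes were picked as examples after their values were seen. No list was tested as a set. On data simulated from these libraries (15022 genes) the share of shifted genes found was 2, 36, 96 and 98% at log2 shifts of 1, 2, 4 and 6, and 10 of 126 calls were false. Alternatives were other scalings, filters, tests (limma 3.58.1, DESeq2 1.42.0) and sets of libraries. Some list members are counted but not reported here by name.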

Additional observations from a re-analysis of the deposited data

How the results depend on the processing

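The count of 53 called genes depended on the fit, and the direction was lower in CD8a+ cells for most calls in each fit with more than 5. DESeq2's Wald test called 568 (46 higher, 522 lower), no filter on low counts 906 (44 and 862) and a filter of at least 5 CPM in 2 libraries 81, each with all 53. Limma-voom called 3 (Anxa1, Cd8a and Ly6c2) and the fit of only the 4 libraries compared 3 (Anxa1, Cd8a and Nupr1). The fit of all 22 libraries called 17, of which 14 were among the 53. In that fit 16 of the 28 called genes named lost their call, among them Ly6c2, Cd28, Ccr7 and Ifngr2. Leaving out genes that follow the epithelial list gave 23, and the epithelial sum with Cdh1 as a covariate gave 27, of which 23 were among the 53. Leaving out 1 library gave between 2 and 667 calls: 5 and 2 without CD8a+ replicates 1 and 2, 138 without CD8a- replicate 1 and 667 without CD8a- replicate 2. Of 46 higher calls without CD8a- replicate 1, 44 had the second CD8a- library under 1/4 of the lowest of the other 3 libraries. The 2 other scalings gave 54 and 50, and library totals alone moved the median of all tested genes from -0.05 to -0.15. A replicate block gave 72 calls, 3 higher and 69 lower, 49 of them among the 53, and of the genes named it ended the call of Ccr7 (adjusted p = 0.0523) and added Cd6 (0.0425), Tcf7 (0.0356) and Matk (0.0144); the numbers share no stated origin, and same-numbered libraries of these populations deviated together at r = 0.247, with only 2 numbers. Ifngr1, uncalled throughout, changed sign to -0.042 without CD8a- replicate 1 (0.508 without replicate 2) and to -0.054 with the epithelial covariate. List medians changed sign in 8 of 33 lists without CD8a- replicate 1, among them stromal markers (-1.12 to 2.52), B cell markers (-1.88 to 0.85) and survival genes (0.14 to -0.08), and in 3 without replicate 2. The median of the epithelial list was -1.04 without CD8a- replicate 1. The causes of these changes were not tested. In the simulated counts, with 2 libraries per population, most shifts of a log2 of 1 or 2 were not found.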

Other observations

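Some further genes that missed the threshold, picked after their values were seen, had well separated libraries. Sult2b1, a sulfotransferase of sterols, and Matk, a kinase that restrains Src family kinases, averaged 206 and 115 CPM in CD8a+ cells, with log2 fold changes of 2.25 ± 0.42 (adjusted p = 0.0615) and 2.38 ± 0.51 (0.101) in edgeR's test. Cd79b, a signalling chain of the B cell receptor, was at 43.3 and 32.4 CPM in CD8a+ cells and 8.81 and 5.75 in CD8a- cells (2.38 ± 0.51, adjusted p = 0.0998), while its partner Cd79a was at 0.167 and 0.0836 against 4.87 and 2.63 CPM. In the other direction Ifi44, an interferon-induced gene, had a log2 fold change of -2.33 ± 0.42 (adjusted p = 0.0594).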
